A study of Mus musculus with 4 samples.

Results

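Collagen chains and the enzymes that modify, fold and crosslink them were followed across 4 arrays of mouse DFAT cells, fibroblast-like cells that arise when mature fat cells lose their lipid in culture. The members were chosen by gene symbol alone: every collagen chain gene with a probe set of its own, the lysyl oxidases Lox, Loxl1, Loxl3 and Loxl4, the lysyl hydroxylases Plod1, Plod2 and Plod3, the prolyl 4-hydroxylase subunits P4ha1, P4ha2 and P4ha3, and the collagen chaperone Serpinh1. This gave 53 of the 18193 genes with a probe set, read by 101 probe sets, and each gene was represented by its probe set of highest mean signal. On at least 1 array, 37 of the 53 reached the median of all values in the table, a log2 signal of 5.69, and are called measured, as are 11600 of all genes.

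The 4 groups were cells given the small molecule Y-27632, cells given its vehicle DMSO, cells transfected with an siRNA against Mkl1, and cells transfected with a control siRNA. All cells were grown in the same serum-containing medium. Mkl1, now named Mrtfa, encodes an actin-regulated coactivator of the transcription factor SRF. Every group is a lone array, which leaves all differences without replicates and without p-values; precision is limited by how few arrays there are. The labels do not give doses, times, the siRNA sequences or the number of cultures behind an array.

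Collagens are triple helices of chains rich in glycine and hydroxyproline. Prolyl and lysyl hydroxylases modify the chains in the endoplasmic reticulum, the chaperone encoded by Serpinh1 holds the folded helix, and lysyl oxidases crosslink the secreted molecules. Fibrillar collagens form the fibrils of connective tissue, whereas type IV collagen forms the sheet of the basement membrane, which surrounds each mature fat cell. Fat tissue is also rich in type VI collagen, a microfibril.

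With Mkl1 siRNA, most collagen genes lay below control siRNA. Collagens neither fibrillar nor of the basement membrane had a median near 0 (-0.05), with 3 of 11 above 0. In this comparison 33 of 37 measured members were below 0, with a median log2 difference of -0.41, beside 49.8% of all genes measured and a median of 0.00. Of the members 6 were at least 2-fold lower (16.2%), against 1.74% of all genes, and 0 were at least 2-fold higher, against 1.79% of all genes. With Y-27632, 1 member, Col15a1, was at least 2-fold above DMSO (2.70%, against 1.27% of all genes). At least 2-fold below DMSO were 0 (against 0.224% of all genes). The median of the members was 0.04, with 21 of 37 above 0 (56.8%, beside 50.4% of all genes). For the background between controls, 2 members were at least 2-fold higher with control siRNA than with DMSO (5.41%, against 0.957% of all genes), 0 were at least 2-fold lower (against 1.09%), and the median was 0.02.

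**Figure D1:**
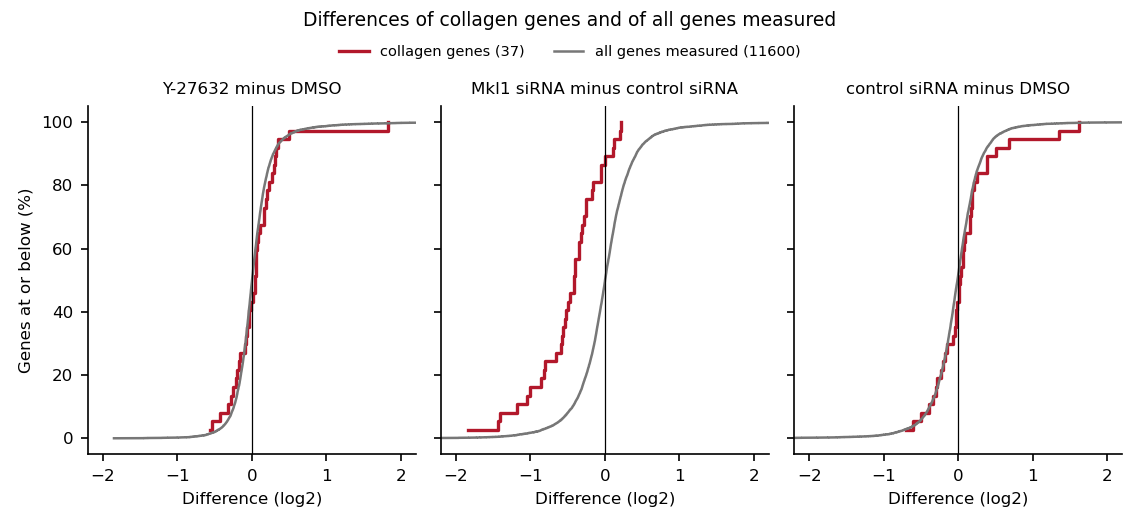
Cumulative share of genes (percent, vertical axis) at or below a given log2 difference (horizontal axis, cut at 2.2 on either side) in panels for Y-27632 against DMSO, Mkl1 siRNA against control siRNA, and the controls against each other; red steps are the 37 measured collagen genes and grey lines all 11600 genes measured. The red line stands left of the grey one with Mkl1 siRNA, where 33 of 37 members are below 0, and runs close to it in the other panels apart from a few genes far to the right.

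The targeted transcript Mrtfa had a log2 signal of 7.70 with Mkl1 siRNA and 8.55 with control siRNA, a difference of -0.85, and of 8.18 with Y-27632 and 8.32 with DMSO. All 8 fibroblast and preadipocyte markers with a probe set were measured, including Pdgfra, Pdgfrb and Thy1, and the summed linear signal of the list was 67974 with Y-27632 against 69400 with DMSO, and 67996 with Mkl1 siRNA against 80954 with control siRNA. With Mkl1 siRNA all 8 were below control siRNA (median -0.27), and with Y-27632 5 of 8 were above DMSO (median 0.03); Cd34 reached the bound of 5.69 on the Y-27632 array alone. Mature fat cell markers differed with both treatments: 6 of 7 were measured, all 6 were above the control array with each treatment, and the summed linear signal of the list was 52374 with Y-27632 against 24816 with DMSO, and 57557 with Mkl1 siRNA against 25495 with control siRNA. Of these 6, Cidec reached the bound on the treated arrays alone, so its direction was fixed by the filter. The 18S ribosomal RNA control probe sets were lower by a median of -0.48 with each treatment. The Actb control probe sets, whose 3′ minus 5′ signal is a sign of RNA quality, differed by 0.26 with Y-27632, 0.14 with Mkl1 siRNA and -0.03 between the controls. Among markers of other cell types, 1 of 6 chondrocyte genes was measured (Sox9), 1 of 3 osteoblast, 1 of 5 endothelial, 1 of 4 myoblast and 2 of 5 macrophage and leukocyte genes. Of 4 smooth muscle markers 3 were measured, and all 3 were below the control array with each treatment (medians -1.21 with Y-27632 and -0.54 with Mkl1 siRNA). The part of these marker lists, the ribosomal RNA and the Actb values in the collagen results was not tested. In bulk RNA, fewer cells of a type and less RNA per cell cannot be told apart.

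The stretches below are the 250 bases before the annotated start of transcription of 5 members, from RefSeq (GRCm38.p6), written 5′ to 3′ on the strand of the gene. They are shown because Col11a1 and Col8a1 had the lowest differences among the collagen chains with Mkl1 siRNA, Col15a1 the highest with Y-27632, Col4a5 was the one measured basement membrane chain below its control in both comparisons, and Col1a2 encodes a chain of the main fibrillar collagen. Capitals mark CCAAT (the box bound by NF-Y) and GGGCGG (the GC box bound by Sp1) on either strand.
Col11a1, chr3:114030290-114030539, plus strand: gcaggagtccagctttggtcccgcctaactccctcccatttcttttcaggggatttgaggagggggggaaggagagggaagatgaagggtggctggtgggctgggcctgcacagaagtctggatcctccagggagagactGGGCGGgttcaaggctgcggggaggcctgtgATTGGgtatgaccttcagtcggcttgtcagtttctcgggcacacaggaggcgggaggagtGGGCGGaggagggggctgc
Col8a1, chr16:57754738-57754987, minus strand: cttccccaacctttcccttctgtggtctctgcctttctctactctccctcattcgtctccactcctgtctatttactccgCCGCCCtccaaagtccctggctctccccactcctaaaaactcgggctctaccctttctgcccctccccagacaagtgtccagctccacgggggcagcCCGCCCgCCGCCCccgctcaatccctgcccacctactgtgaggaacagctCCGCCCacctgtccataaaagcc
Col1a2, chr6:4505368-4505617, plus strand: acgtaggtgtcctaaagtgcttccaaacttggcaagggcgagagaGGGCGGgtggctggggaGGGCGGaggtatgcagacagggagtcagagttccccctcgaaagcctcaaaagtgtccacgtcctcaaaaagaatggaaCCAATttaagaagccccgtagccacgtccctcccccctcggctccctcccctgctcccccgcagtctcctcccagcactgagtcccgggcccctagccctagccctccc
Col15a1, chr4:47207762-47208011, plus strand: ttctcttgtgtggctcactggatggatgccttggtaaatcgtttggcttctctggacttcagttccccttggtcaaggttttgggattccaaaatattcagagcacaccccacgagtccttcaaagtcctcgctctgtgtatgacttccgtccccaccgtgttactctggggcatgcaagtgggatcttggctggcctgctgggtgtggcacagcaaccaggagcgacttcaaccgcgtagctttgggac
Col4a5, chrX:141475169-141475418, plus strand: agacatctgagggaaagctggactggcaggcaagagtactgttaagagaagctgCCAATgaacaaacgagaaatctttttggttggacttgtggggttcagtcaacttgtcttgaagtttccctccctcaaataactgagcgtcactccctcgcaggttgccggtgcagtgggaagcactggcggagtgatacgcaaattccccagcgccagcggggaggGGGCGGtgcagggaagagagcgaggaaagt

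The CArG box, the site bound by SRF, was in 0 of the 28 measured members with a promoter in the table, beside 1.47% of all 32851 promoters. GGGCGG was in 20 of the 28 (71.4%), beside 32.7% of all promoters, and CCAAT in 12 (42.9%), beside 33.8%. TATAAA (the TATA box) was in 3 and GGAATG (a site of TEAD factors) in 4 of the 28, or 10.7% and 14.3%, beside 12.4% and 12.6%. Of the promoters printed, Col8a1 held 4 GC boxes, Col1a2 and Col11a1 each held 2 GC boxes and 1 CCAAT, Col4a5 held 1 of each, and Col15a1 held none of these motifs. All motifs were searched on both strands, and matches of different motifs may share letters. Members were counted once per gene and only if measured. The share over all promoters counts each promoter, of genes measured or not. The shares set side by side are thus of unlike units and sets, and a trait of collagen genes cannot be read from them. These matches describe the letters of a short window and do not show binding.

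Among the fibrillar collagens, 10 of 11 genes were measured and Col24a1 was not. All 10 were below control siRNA with Mkl1 siRNA (median -0.34), beside 49.8% of all genes. With Y-27632 8 of 10 were above DMSO (median 0.05), beside 50.4% of all genes. Of these, Col5a1 (0.01), Col5a2 (0.04), Col3a1 (0.04) and Col27a1 (0.05) stood near 0. Col11a2 reached the bound of 5.69 on the Y-27632 and control siRNA arrays alone, so its direction in both comparisons was fixed by the filter. Against control siRNA in place of DMSO, 6 of 10 were higher with Y-27632, beside 52.4% of all genes. Col1a1 and Col1a2, which encode the chains of type I collagen, differed in size. Col1a1 had a log2 signal of 11.18 with Mkl1 siRNA and 12.23 with control siRNA, which is -1.05 apart (a ratio of 0.484), and of 12.75 with Y-27632 and 12.57 with DMSO. Mkl1 siRNA was the lowest of its 4 arrays. Col1a2 had 14.09 with Mkl1 siRNA and 14.40 with control siRNA, a difference of -0.31, and 14.39 with Y-27632 and 14.43 with DMSO. The other arrays lay close together and Mkl1 siRNA below them.

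Col3a1, whose chain forms type III collagen in soft tissues, had 14.13 with Mkl1 siRNA and 14.46 with control siRNA, a difference of -0.32, and 14.51 with Y-27632 and 14.47 with DMSO. These signals of Col1a2 and Col3a1 lie close to the highest value of the whole table, 14.62. Over all probe sets with a mean signal from 14 to 15, the differences between Mkl1 siRNA and control siRNA had an SD of 0.101 (97 probe sets), beside 0.408 from 10 to 12 (3443 probe sets). The second probe sets of these genes gave larger differences: -1.22 for Col1a2, from 12.30 with Mkl1 siRNA and 13.51 with control siRNA, and -1.51 for Col3a1, from 11.33 and 12.83. The dimmest Col1a2 probe set gave -0.82. For Y-27632 against DMSO the second probe sets stood at 0.08 for Col1a2 and 0.26 for Col3a1, and the dimmest Col1a2 probe set at -0.47.

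Type V collagen joins type I in mixed fibrils and limits their width. Col5a2 had 13.20 with Mkl1 siRNA and 14.02 with control siRNA, a difference of -0.82, and 13.81 with Y-27632 and 13.77 with DMSO. Its second probe set gave -0.72 with Mkl1 siRNA and 0.46 with Y-27632. Col5a1 had 11.83 with Mkl1 siRNA and 12.35 with control siRNA, a difference of -0.52 that was -0.83 and -0.69 on its other probe sets. Col5a3 differed by -0.35 with Mkl1 siRNA and by 0.31 with Y-27632. The Mkl1 siRNA array was the lowest of the 4 for each type V chain. Col3a1 and Col5a2 are neighbours in the genome.

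Col11a1, a minor fibrillar chain best known from cartilage fibrils, had the lowest difference of all members with Mkl1 siRNA. Its log2 signal was 6.73 with Mkl1 siRNA and 8.57 with control siRNA, a difference of -1.84 or 3.57-fold lower, and 8.11 with Y-27632 and 7.89 with DMSO. Both of its probe sets gave -1.84 with Mkl1 siRNA, while with Y-27632 they gave 0.22 and -0.18. Against DMSO the Mkl1 siRNA array was lower by -1.16, since control siRNA itself stood above DMSO by 0.68. The chondrocyte marker Sox9, a known activator of Col11a1, differed by -1.05 with Mkl1 siRNA, and the other 5 chondrocyte markers were not measured. A part of Sox9 in the Col11a1 difference was not tested. The remaining fibrillar chains were Col27a1 at -0.26, Col11a2 at -0.28 and Col2a1 at -0.17 with Mkl1 siRNA, the last pair under a signal of 7 on every array.

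**Figure D2:**
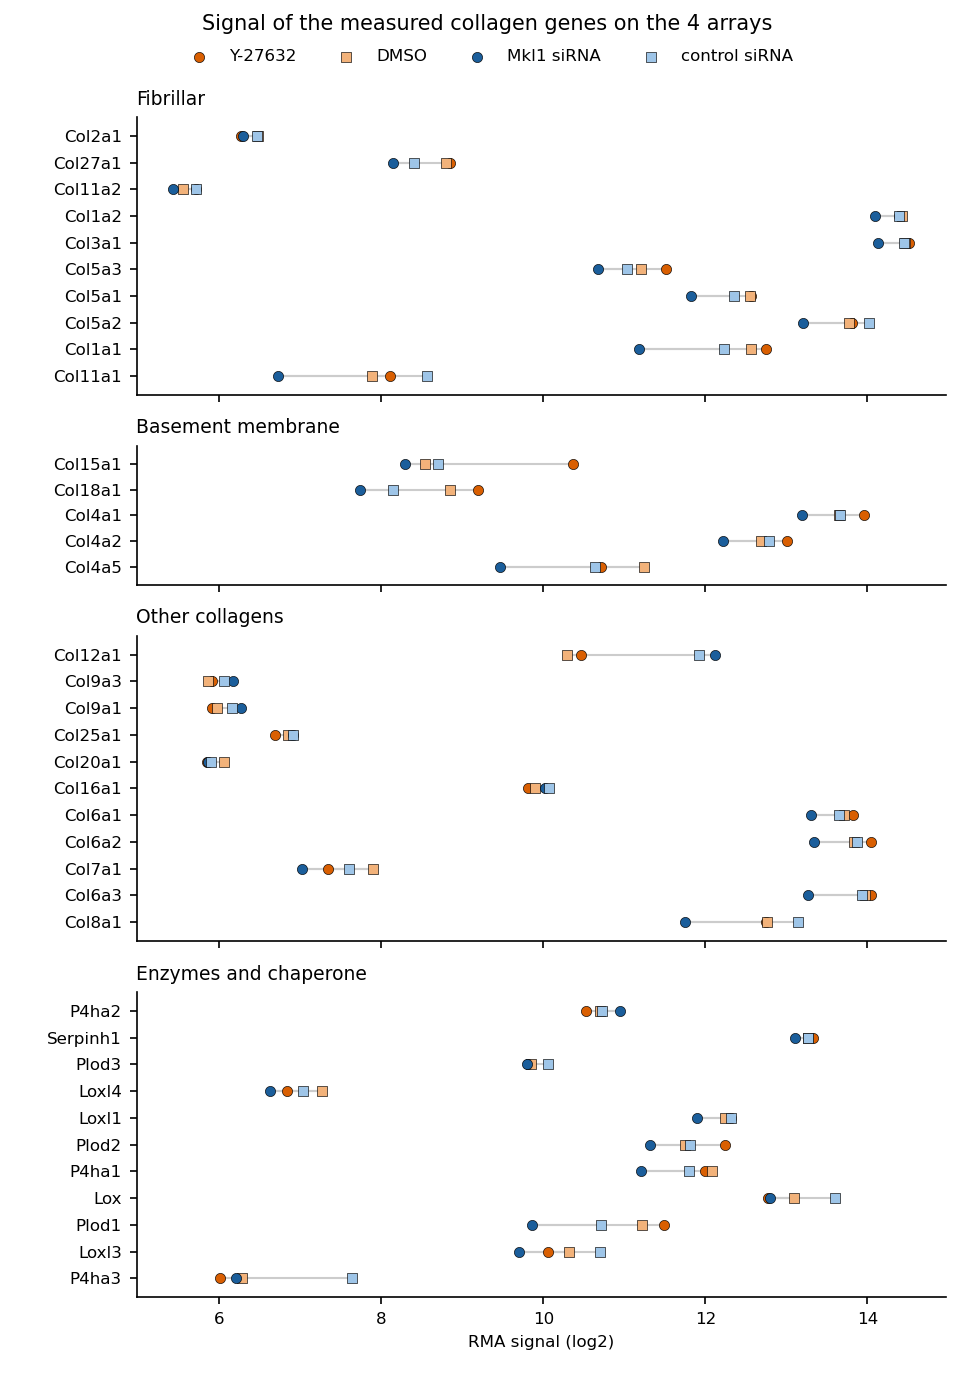
Log2 RMA signal (horizontal axis) of each measured collagen gene (rows, grouped by class and ordered by the difference between Mkl1 siRNA and control siRNA) on the Y-27632, DMSO, Mkl1 siRNA and control siRNA arrays; each point is 1 array. Mkl1 siRNA is the leftmost point for Col1a1, Col11a1, Col8a1 and Col4a5, and Col15a1 has its Y-27632 point at 10.36, right of the 3 others.

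Of the 5 measured basement membrane collagens, 4 stood on opposite sides of their controls in the comparisons, while Col4a5 was below in both. All 5 measured genes were below control siRNA with Mkl1 siRNA (median -0.47) and 4 of 5 were above DMSO with Y-27632 (median 0.32); Col4a3, Col4a4 and Col4a6 were not measured. Col15a1 encodes a collagen of the basement membrane zone that carries sugar chains. Its log2 signal was 10.36 with Y-27632 and 8.54 with DMSO, a difference of 1.82 or 3.54-fold higher, and 8.29 with Mkl1 siRNA and 8.70 with control siRNA, a difference of -0.40. Against control siRNA the Y-27632 array was higher by 1.67. The Y-27632 array alone was high, and the other 3 spanned 8.29 to 8.70 on this 1 probe set.

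Col4a1 and Col4a2, which together form the common type IV molecule, had like differences. Col4a1 had 13.95 with Y-27632 and 13.65 with DMSO, a difference of 0.30, and 13.19 with Mkl1 siRNA and 13.66 with control siRNA, a difference of -0.47. Col4a2 had 13.01 with Y-27632 and 12.69 with DMSO, a difference of 0.32, and 12.22 with Mkl1 siRNA and 12.78 with control siRNA, a difference of -0.56. For both genes Y-27632 was the highest array and Mkl1 siRNA the lowest, while the control arrays differed by 0.01 for Col4a1 and 0.10 for Col4a2. These genes lie head to head: in GRCm38.p6 the RefSeq promoter window of Col4a1 (chr8:11312777-11313076, minus strand) and that of Col4a2 (chr8:11312555-11312854, plus strand) share 78 of 300 bases. Neither reached 1.5-fold above DMSO; Col15a1 alone among the members did (against 3% of all genes).

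Col18a1, the source of the fragment endostatin, had 9.19 with Y-27632 and 8.85 with DMSO, a difference of 0.35, and 7.73 with Mkl1 siRNA and 8.15 with control siRNA, a difference of -0.41. Its second probe set gave 0.02 with Mkl1 siRNA, and control siRNA stood below DMSO by -0.70. Col4a5 had the opposite sign to Col4a1 with Y-27632. It had 10.71 with Y-27632 and 11.25 with DMSO, a difference of -0.54, and 9.47 with Mkl1 siRNA and 10.64 with control siRNA, which is -1.18 apart (a ratio of 0.442). Its second probe set gave -0.75 and -1.20. Control siRNA was itself below DMSO by -0.60, and against it the Y-27632 array differed by 0.07. The Col4a5 chain is known to assemble with those of Col4a3 and Col4a4 or with that of Col4a6.

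Among the other collagens, 11 of 23 genes were measured. With Mkl1 siRNA 8 of 11 were below control siRNA (median -0.05), and with Y-27632 5 of 11 were above DMSO (median -0.01). Col8a1, a short chain that builds networks around vessels and in the cornea, had 11.75 with Mkl1 siRNA and 13.15 with control siRNA, a difference of -1.40 or 2.64-fold lower, and 12.75 with Y-27632 and 12.77 with DMSO. Its other probe sets gave -2.06 and -2.16. Mkl1 siRNA was the lowest array on all 3 probe sets, and Y-27632 differed from DMSO by -0.01, -0.10 and -0.03 on them.

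The type VI chains were lower with Mkl1 siRNA in each case, short of 2-fold. Col6a3, whose chain yields endotrophin in fat tissue, had 13.27 with Mkl1 siRNA and 13.93 with control siRNA, a difference of -0.66, and 14.05 with Y-27632 and 13.97 with DMSO. Col6a2 had 13.34 with Mkl1 siRNA and 13.88 with control siRNA, a difference of -0.54 that was -0.95 on its second probe set, and 14.04 with Y-27632 and 13.84 with DMSO. Col6a1, the genomic neighbour of Col6a2, had 13.30 with Mkl1 siRNA and 13.65 with control siRNA, a difference of -0.34, and 13.82 with Y-27632 and 13.72 with DMSO. Mkl1 siRNA was the lowest and Y-27632 the highest of the 4 arrays for all 3 genes.

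Col7a1, which forms anchoring fibrils of the skin, was the member furthest below DMSO with Y-27632, at -0.57, and differed by -0.58 with Mkl1 siRNA. Col12a1 binds to the surface of fibrils and separated the transfected from the untransfected cells. It had 12.12 with Mkl1 siRNA and 11.92 with control siRNA, a difference of 0.20, and 10.46 with Y-27632 and 10.29 with DMSO, a difference of 0.17. Control siRNA stood above DMSO by 1.63, or by 0.87 on the second probe set. Col16a1, another fibril-associated chain, differed by -0.05 with Mkl1 siRNA and -0.09 with Y-27632. Col9a1, Col9a3, Col20a1 and Col25a1 stayed under a signal of 7 on every array and ranged from -0.05 to 0.11 with Mkl1 siRNA.

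**Figure D3:**
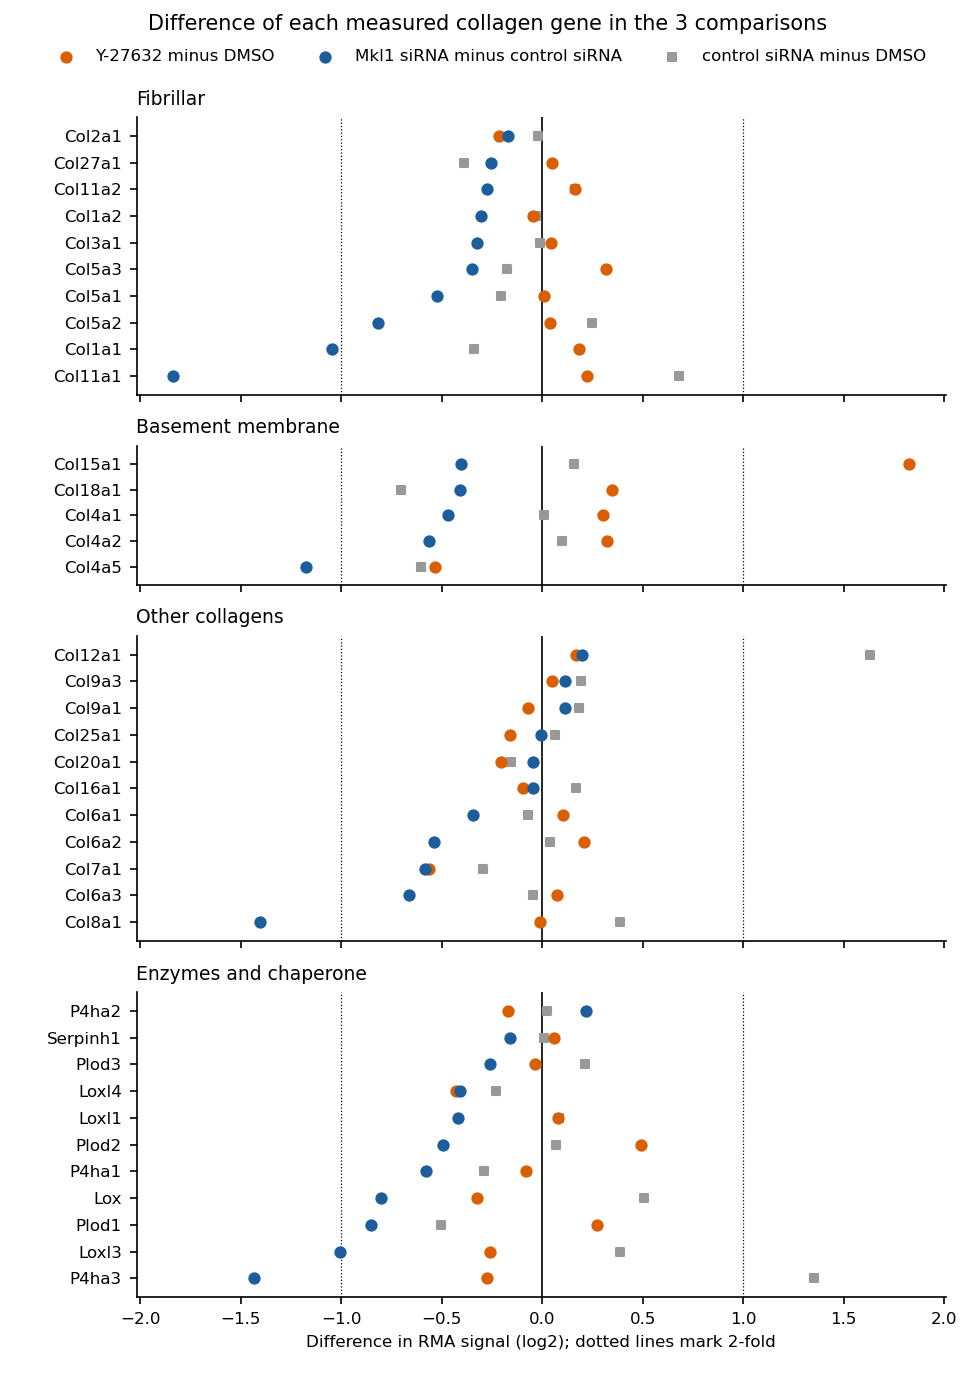
Log2 difference in RMA signal (horizontal axis) of each measured collagen gene (rows) for Y-27632 against DMSO (orange), Mkl1 siRNA against control siRNA (blue) and the control siRNA array against DMSO (grey squares), with dotted lines at 2-fold; each point is a difference between 1 array and 1 other. Blue points lie left of 0 for 33 of 37 genes, and the orange point of Col15a1 at 1.82 is the only one past 2-fold with Y-27632.

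All 11 enzyme and chaperone genes were measured. With Mkl1 siRNA 10 of 11 were below control siRNA (median -0.49), and with Y-27632 4 of 11 were above DMSO (median -0.08). Lox, the founding lysyl oxidase, had 12.80 with Mkl1 siRNA and 13.60 with control siRNA, a difference of -0.80, and 12.77 with Y-27632 and 13.09 with DMSO, a difference of -0.32. Its second probe set gave -1.26 and -0.49. Control siRNA was the highest array, 0.51 above DMSO, and the difference between Mkl1 siRNA and DMSO was -0.29. Loxl3 had 9.69 with Mkl1 siRNA and 10.70 with control siRNA, a difference of -1.01, and 10.06 with Y-27632 and 10.31 with DMSO; against DMSO the Mkl1 siRNA array differed by -0.62, short of 2-fold. Loxl1, which crosslinks elastin as well, had 11.90 with Mkl1 siRNA and 12.32 with control siRNA, a difference of -0.42, and 12.32 with Y-27632 and 12.24 with DMSO, a difference of 0.08. Its second probe set gave -0.81 and 0.29. Loxl4 differed by -0.41 with Mkl1 siRNA and by -0.43 with Y-27632.

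The lysyl hydroxylases prepare the sites at which crosslinks form. Plod1, which acts on the helix, had 9.86 with Mkl1 siRNA and 10.71 with control siRNA, a difference of -0.85. It had 11.49 with Y-27632 and 11.21 with DMSO, a difference of 0.27. A dim second Plod1 probe set gave -0.24 with Mkl1 siRNA and -0.09 with Y-27632. Plod2, which acts on the ends of the chain, had 11.32 with Mkl1 siRNA and 11.81 with control siRNA, a difference of -0.49, and 12.24 with Y-27632 and 11.75 with DMSO, a difference of 0.49. The second Plod2 probe set gave -0.48 and 0.63. Plod2 had the highest Y-27632 difference of the enzymes. Plod3, which also adds sugars, had 9.80 with Mkl1 siRNA and 10.06 with control siRNA, a difference of -0.26, and 9.81 with Y-27632 and 9.84 with DMSO.

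The prolyl 4-hydroxylase subunits, whose product stabilises the helix, differed in sign with Mkl1 siRNA, while all 3 were below DMSO with Y-27632. P4ha1 had 11.21 with Mkl1 siRNA and 11.79 with control siRNA, a difference of -0.58 that was -0.95 on its second probe set, and 11.9995 with Y-27632 and 12.0809 with DMSO. P4ha2 had 10.94 with Mkl1 siRNA and 10.73 with control siRNA, a difference of 0.22, the only enzyme above 0, and 10.53 with Y-27632 and 10.70 with DMSO. P4ha3 had 6.20 with Mkl1 siRNA and 7.64 with control siRNA, a difference of -1.43, and 6.003 with Y-27632 and 6.280 with DMSO. For P4ha3 the control siRNA array alone was high, 1.35 above DMSO, and Mkl1 siRNA differed from DMSO by -0.08. Serpinh1 had 13.11 with Mkl1 siRNA and 13.27 with control siRNA, a difference of -0.16, and 13.32 with Y-27632 and 13.26 with DMSO, and its second probe set gave -0.18 and 0.11.

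At a lower bar of 1.5-fold, 10 members were lower with Mkl1 siRNA (27.03%, against 5.91% of all genes): the 6 past 2-fold (Col11a1, P4ha3, Col8a1, Col4a5, Col1a1 and Loxl3) and Plod1, Col5a2, Lox and Col6a3. P4ha1 (-0.581) and Col7a1 (-0.584) lay just inside the bound of 0.585. With Mkl1 siRNA 0 members were 1.5-fold higher, against 5.42% of all genes. With Y-27632 0 members were 1.5-fold lower, against 1.33% of all genes. Between the control arrays 3 members were 1.5-fold higher (against 3.42% of all genes) and 2 lower (against 4.09%) with control siRNA. Set against DMSO in place of control siRNA, the Mkl1 siRNA array was lower for 31 of 37 members (median -0.42), with 6 at least 2-fold lower (16.2%, against 3.23% of all genes). Of those 6, Col1a1 (-1.38), Col11a1, Col4a5 (-1.78) and Col8a1 (-1.02) were also at least 2-fold lower against control siRNA, while Col18a1 (-1.11) and Plod1 (-1.36) were so against DMSO alone. Col12a1 (1.83) was the 1 member at least 2-fold above DMSO, against 2.73% of all genes. At 1.5-fold 13 members were lower than DMSO with Mkl1 siRNA (against 8.74%) and 1 higher (against 7.4%). Set against control siRNA, the Y-27632 array was at least 2-fold higher for 2 members, Col15a1 and Col18a1 (against 2.03% of all genes), and lower for 2, Col12a1 and P4ha3 (against 0.75%). At 1.5-fold these counts were 3 higher (against 5.7%) and 4 lower (against 3.25%).

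Where a member had more than 1 measured probe set, the second brightest gave the lower difference with Mkl1 siRNA in 14 of 21 genes (66.7%), beside 50.9% of 5273 genes overall. The median over these 21 members was -0.49 by the brightest and -0.81 by the second probe set, and the number at least 2-fold lower was 4 and 7, beside 85 and 79 of the 5273 genes. With Y-27632 the same medians were 0.05 and 0.08. The sizes given here for the brightest collagen probe sets depend on the probe set. With Mkl1 siRNA both probe sets shared the direction in 19 of 21 members, beside 4014 of the 5273 genes overall. With Y-27632 they did so in 15 of 21 members, beside 3612 of the 5273 genes.

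**Figure D4:**
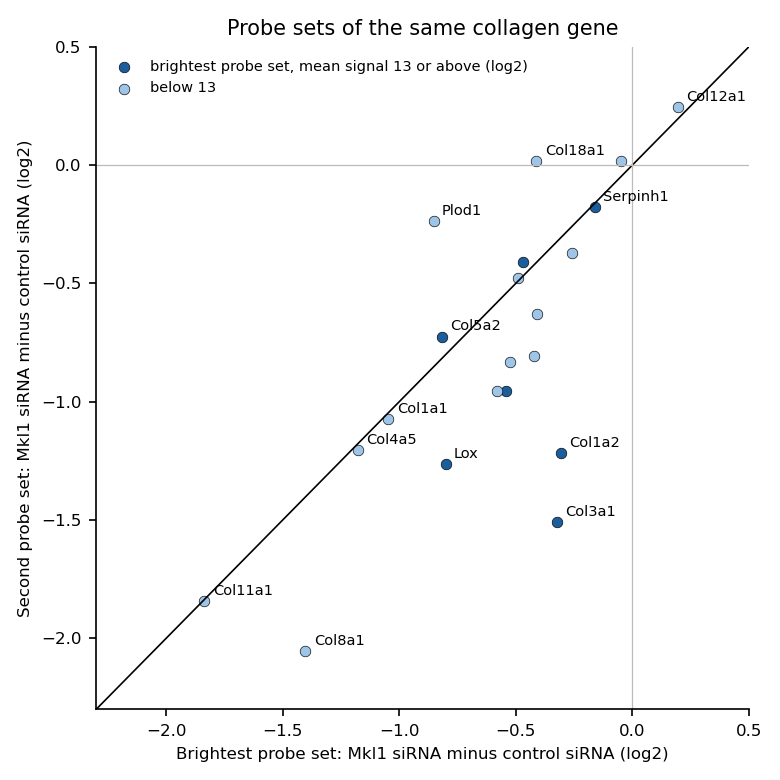
Log2 difference between Mkl1 siRNA and control siRNA on the brightest (horizontal axis) and second (vertical axis) measured probe set of the same collagen gene; each point is 1 of 21 genes, dark where the brightest probe set has a mean log2 signal of 13 or above, and the diagonal marks equal differences. Col1a2 and Col3a1 lie far below the diagonal, at -1.22 and -1.51 on the second probe set against -0.31 and -0.32 on the brightest.

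The treatment comparisons share no array, so the members can be set side by side. Of 37 members, 19 were above DMSO with Y-27632 and below control siRNA with Mkl1 siRNA (51.4%, beside 21.25% of all genes), 14 were below in both (37.8%, beside 28.4%), and 2 were above in both (5.41%, beside 29.1%). The first pattern held for 8 of 10 fibrillar and 4 of 5 basement membrane genes, but for 3 of 11 other collagens and 4 of 11 enzymes. Among these genes, Col11a2 had its direction fixed by the filter. With 33 of 37 members below control siRNA, most of the 21 members above DMSO with Y-27632 had to show the first pattern. Its share therefore largely repeats the counts of each comparison. Across the 37 members the Pearson correlation of both differences was 0.06, beside 0.39 across all genes measured, given as a description since genes share arrays and are not independent. The difference between these comparisons was not tested.

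Other genes of the collagen route were read from lists by role. Of 9 measured folding and modification genes, all were above DMSO with Y-27632 (median 0.14) and all below control siRNA with Mkl1 siRNA (median -0.21). P3h1, a prolyl 3-hydroxylase that works with Crtap and Ppib, had 7.68 with Mkl1 siRNA and 8.36 with control siRNA, a difference of -0.68, and 8.98 with Y-27632 and 8.46 with DMSO. P3h3 differed by -0.60 with Mkl1 siRNA. In these 9 genes 2 were at least 1.5-fold lower with Mkl1 siRNA (against 5.91% of all genes) and 0 with Y-27632 (against 1.33%).

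Of 3 measured procollagen processing genes, all were below control siRNA with Mkl1 siRNA, with Bmp1, a protease that trims the procollagen ends, at -0.48. Of 4 measured secretion genes 3 were below 0, with the coat proteins Sec23a and Sec24d at -0.44 and -0.43. Creb3l1, a transcription factor for collagen genes, differed by -0.37 with Mkl1 siRNA, and its control siRNA array lay at -1.06 relative to DMSO. Of 5 measured collagen receptors 3 were above control siRNA with Mkl1 siRNA, among them the integrin subunit Itga1 at 0.77, with 8.24 with Mkl1 siRNA and 7.46 with control siRNA.

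Partners of type IV collagen in the basement membrane included genes with opposite differences in the comparisons. Of 12 measured, 9 were above DMSO with Y-27632 (median 0.09) and 9 below control siRNA with Mkl1 siRNA (median -0.37). Lamc1, a chain shared by most laminins, had 10.73 with Y-27632 and 10.12 with DMSO, a difference of 0.61, and 8.93 with Mkl1 siRNA and 10.08 with control siRNA, a difference of -1.14. Lama2, a laminin chain of muscle and stromal cells, had 9.79 with Y-27632 and 8.87 with DMSO, a difference of 0.92, and 7.58 with Mkl1 siRNA and 8.52 with control siRNA, a difference of -0.94. Both had Y-27632 as the highest and Mkl1 siRNA as the lowest array, like Col4a1 and Col4a2. Lama4 differed by 0.62 with Y-27632 and 0.26 with Mkl1 siRNA, Hspg2 (perlecan) by 0.31 and -0.63, and Lamb2 by -0.07 and -0.66.

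The 16 members that were not measured had log2 signals from 2.51 to 5.49. They were Col24a1 among the fibrillar chains, Col4a3, Col4a4 and Col4a6, and Col6a4, Col6a5, Col8a2, Col9a2, Col10a1, Col13a1, Col14a1, Col17a1, Col19a1, Col22a1, Col23a1 and Col26a1. Their differences ran from -0.39 to 0.36 with Y-27632 and from -0.60 to 0.30 with Mkl1 siRNA.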

How the data were processed

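Single-colour Affymetrix arrays were used, 4 in all, 1 per group as the sample titles give them. The authors deposited log2 signals for 45101 probe sets, computed with RMA per the submitters' processing notes. Its version, and which arrays it normalised jointly, were not stated in those notes. Values ran from 2.02 to 14.62 and array medians from 5.67 to 5.71, as log2 data do. Probe sets with 1 symbol in the platform annotation (34945) were used; 932 with several symbols, 9211 with none and 64 control probe sets were not. Differences were taken with pandas 2.3.3 on the probe set of highest mean per gene and counted from 2-fold or 1.5-fold. A gene was measured if its highest array reached 5.69. The calculation was tested on simulated data. Alternatives covered probe sets, filters, normalization, fold bound and control array. The members and lists were chosen with earlier results of these data known. Any member could be named, and other collagen pathway genes at least 1.5-fold apart in a treatment comparison; Bmp1, Sec23a, Sec24d, Creb3l1, Bgn and Tnxb lie outside that rule and were named after their values were seen. Promoters came from RefSeq (GRCm38.p6). Whether an array stands for a separate culture is not stated.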

Additional observations from a re-analysis of the deposited data

How the results depend on the processing

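With 1 array per group no array could be left out. No paired analysis was possible because each group has a single array. For lack of replicates, a median was taken as moved when it shifted by at least 0.172, the median absolute difference between the control arrays over all genes measured. Of the counts and medians recomputed, 153 stayed within that shift or within 1.5 times the count and 14 did not; for single genes the numbers were 715 and 82, and no called value reversed. For Mkl1 siRNA, the fibrillar median moved to -0.73 with the mean of all probe sets, or of measured probe sets (an alternative chosen after seeing the data), to -0.82 without probe sets named _s_at, _x_at or _a_at, which can bind more than 1 transcript, and to -0.55 against DMSO. The median of the other collagens moved to -0.58 with the mean of all probe sets and to -0.44 with a filter at the 75th percentile (8.08), which leaves fewer genes. With a 1.5-fold bar 10 members were lower with Mkl1 siRNA, and against DMSO 1 (Col12a1) was at least 2-fold higher. Against control siRNA in place of DMSO, Y-27632 had 2 members at least 2-fold higher and 2 lower, and the median of other collagens was -0.22. Between the control arrays, 1 member was higher with the mean of all probe sets or the stricter filter, and 2 were lower at 1.5-fold. Loess (span 0.3), subtraction of the median difference and no filter moved none of these counts and medians. The cause of these shifts was not tested beyond the changed choice itself.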

Other observations

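Genes for collagen breakdown and for proteins that bind fibrils were read in the same comparisons. The 6 measured breakdown genes were above DMSO with Y-27632 (median 0.63); of these, Mmp9 reached the bound of 5.69 on the Y-27632 array alone, so its direction was fixed by the filter. Mmp3, the matrix protease stromelysin, had 8.41 with Y-27632 and 7.26 with DMSO, a difference of 1.15, and 8.36 with Mkl1 siRNA and 7.84 with control siRNA, a difference of 0.53. Fap, a protease of activated fibroblasts, had 7.32 with Y-27632 and 6.21 with DMSO, a difference of 1.11, and differed by -0.20 with Mkl1 siRNA. Mmp9 had 6.02 with Y-27632 and 5.24 with DMSO, and 5.02 with Mkl1 siRNA and 5.36 with control siRNA. With Mkl1 siRNA 5 of these 6 genes were below control siRNA (median -0.22).

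Of 5 measured fibril-binding genes, 3 were at least 1.5-fold above DMSO with Y-27632 (against 3% of all genes), and Bgn (-0.06) and Tnxb (-0.36) were below it. Dcn (decorin) had 13.56 with Y-27632 and 12.62 with DMSO, a difference of 0.95, and 11.16 with Mkl1 siRNA and 10.55 with control siRNA, a difference of 0.60; both transfected arrays lay below both untransfected ones. Lum (lumican) had 11.43 with Y-27632 and 9.36 with DMSO, a difference of 2.08, and 4.91 with Mkl1 siRNA and 5.08 with control siRNA. Sparcl1 had 7.26 with Y-27632 and 5.77 with DMSO, a difference of 1.49, and differed by 0.53 with Mkl1 siRNA. Its control siRNA array stood above DMSO by 1.18, and against control siRNA the Y-27632 array differed by 0.31.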
